A study of Mus musculus with 11 samples.

Results

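The myelin and oligodendrocyte genes described here are Mbp, Mag, Mobp, Mog, Cnp, Mal and Olig1, chosen by gene symbol in the array's probe annotation. These 7 of the 15946 genes named on the array are read by 9 of 23978 probes, with 2 probes each for Mog and Mal. RNA of the choroid plexus (CP), the secretory epithelium of the brain ventricles with its vascular stroma, was measured in female SJL mice 6 to 8 weeks old with relapsing-remitting experimental autoimmune encephalomyelitis (EAE). Disease was induced with a proteolipid protein peptide in complete Freund's adjuvant plus pertussis toxin, and the PBS controls received the adjuvant and the toxin with PBS in place of the peptide. There were 3 PBS pools, 3 onset pools, 3 remission pools and 2 relapse pools, each pool holding the CP of 3 perfused mice, so the spread between pools is not the spread between single mice. Onset pools were collected on the same day as PBS pools. Remission and relapse pools were collected later, so for these the phase and the day of collection cannot be told apart.

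Myelin is the multilayered membrane that oligodendrocytes wrap around axons in the central nervous system. Its structural proteins are made in large amounts by mature oligodendrocytes under the control of transcription factors such as those of the Olig and Sox families. Oligodendrocytes belong to brain parenchyma, which lies next to the CP where the plexus attaches to the ventricle wall, and the immunizing peptide comes from a myelin protein. The CP epithelium itself is known for transthyretin, the folate receptor and klotho.

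The samples carried CP markers in every pool. Ttr, Folr1, Clic6 and Sostdc1, markers of CP epithelium, were above background in 11 of 11 pools, and the mean of the 10 CP epithelium genes lay between 14.61 and 14.78 in log2 signal in all pools. Values below are log2 signals after quantile normalization, and a probe is called above background at a detection p under 0.01. Between 8687 and 10221 probes per pool passed that threshold. Onset pool 3 and remission pool 3 resembled each other more than any other pair did. A log2 difference above 1 was found for 0 of the 10012 probes detected in that pair and for 7 to 266 probes in each of the other 54 pairs. Among the member probes their largest difference was 0.239.

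Mbp encodes myelin basic protein, which holds the cytoplasmic faces of compact myelin together. Its probe was above background in 11 of 11 pools. Mbp measured 11.17, 10.92 and 12.67 in PBS pools 1, 2 and 3, and 12.67, 11.59 and 13.04 in onset pools 1, 2 and 3. It measured 12.45, 11.96 and 13.06 in remission pools 1, 2 and 3, and 12.94 and 13.25 in relapse pools 1 and 2. PBS pool 2 was the lowest and relapse pool 2 the highest, a 5.03-fold range. PBS pool 3 alone reached the level of onset pool 1, so the PBS and onset groups overlapped, as did PBS and remission, while both relapse pools lay above all PBS pools. The SD within groups was 0.715, larger than that of 99.8% of the 10139 probes above background in at least 3 pools. In pooled tissue, a change in the number of oligodendrocytes and a change in RNA per cell cannot be told apart.

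Olig1 is a basic helix-loop-helix transcription factor of the oligodendrocyte lineage, and it was above background in 11 of 11 pools. Olig1 measured 9.57, 9.42 and 10.09 in PBS pools 1, 2 and 3, 10.04, 9.61 and 10.46 in onset pools 1, 2 and 3, 9.82, 9.86 and 10.56 in remission pools 1, 2 and 3, and 10.59 and 10.46 in relapse pools 1 and 2. The lowest pool was again PBS pool 2, and the relapse pools lay above all PBS pools. Mag encodes myelin-associated glycoprotein, a sialic acid-binding protein of the myelin layer next to the axon, and was above background in 10 of 11 pools, PBS pool 2 being the exception. Mag measured 9.06, 8.91 and 9.78 in PBS pools 1, 2 and 3, 9.47, 9.38 and 9.92 in onset pools 1, 2 and 3, 9.48, 9.31 and 9.86 in remission pools 1, 2 and 3, and 10.30 and 10.06 in relapse pools 1 and 2. Both relapse pools exceeded the 9 other pools.

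Mobp, which encodes a small basic protein of compact myelin, was above background in only 4 of 11 pools, namely PBS pool 3, onset pool 3, remission pool 3 and relapse pool 1. Mobp measured 8.52, 8.31 and 9.08 in PBS pools 1, 2 and 3, 8.75, 8.71 and 9.13 in onset pools 1, 2 and 3, 8.31, 8.74 and 9.17 in remission pools 1, 2 and 3, and 8.93 and 8.86 in relapse pools 1 and 2. The groups overlapped throughout. Mog encodes myelin oligodendrocyte glycoprotein, a minor protein of the outermost myelin layer. Its 2 probes were above background in 0 of 11 pools, with log2 signals from 7.98 to 8.69 and from 8.00 to 8.47, so differences in the Mog signal are not read as fold changes of the gene.

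Mal encodes a raft proteolipid of myelin that is also made in T cells and in the apical membranes of several epithelia. The brighter Mal probe was above background in 11 of 11 pools and measured 9.21, 9.34 and 9.25 in PBS pools 1, 2 and 3, 9.61, 9.07 and 9.66 in onset pools 1, 2 and 3, 9.34, 9.16 and 9.70 in remission pools 1, 2 and 3, and 9.66 and 9.82 in relapse pools 1 and 2. The other Mal probe was above background in 7 of 11 pools and ranged only from 8.67 to 9.03. Cnp encodes a cyclic nucleotide phosphodiesterase of uncompacted myelin that other cell types also make at lower levels. Cnp was above background in 11 of 11 pools and measured 9.55, 10.31 and 9.76 in PBS pools 1, 2 and 3, 9.94, 9.64 and 9.60 in onset pools 1, 2 and 3, 10.09, 9.70 and 9.84 in remission pools 1, 2 and 3, and 9.91 and 9.88 in relapse pools 1 and 2. Its highest pool was PBS pool 2, the pool in which Mbp, Mag and Olig1 were lowest.

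**Figure D1:**
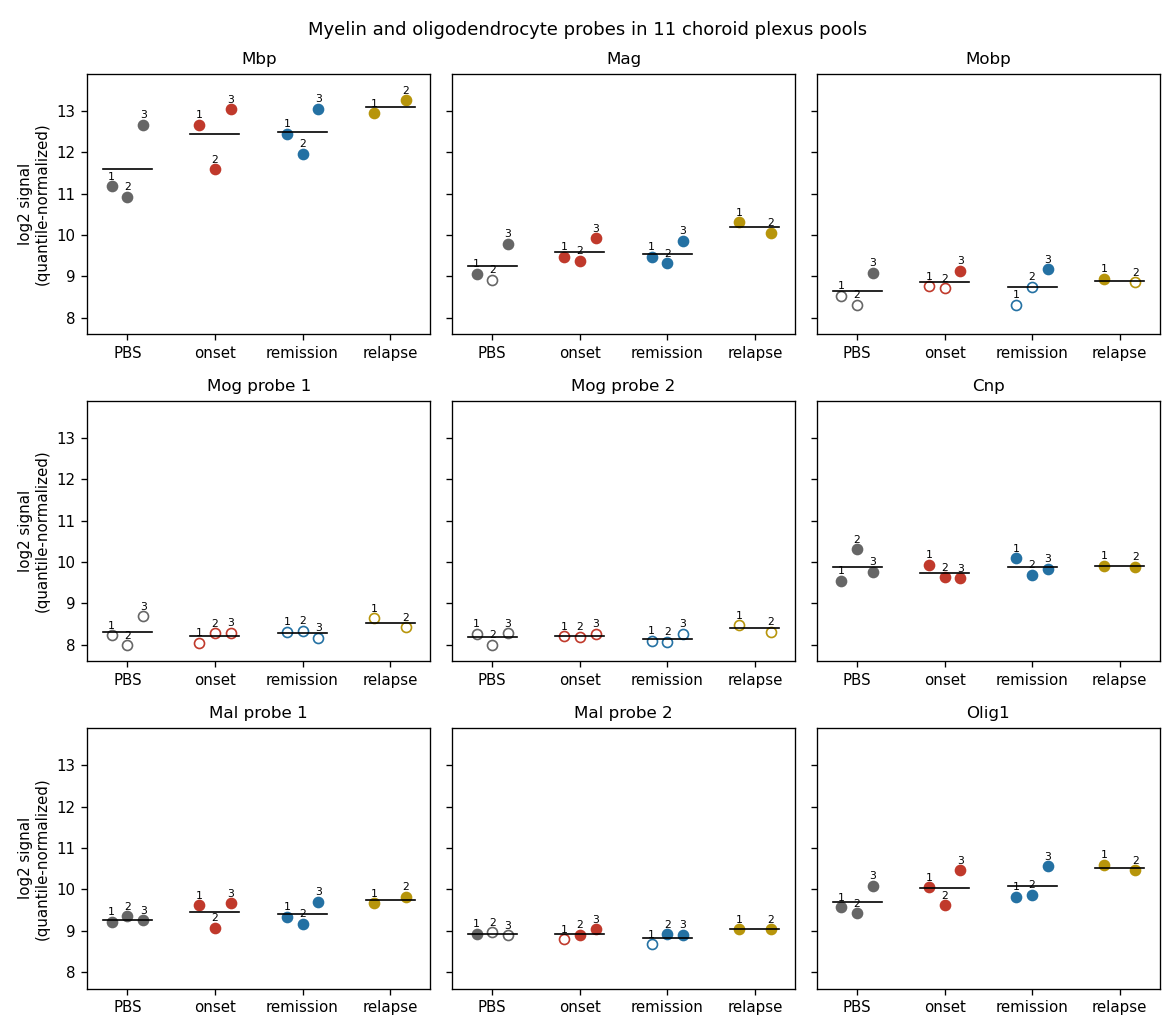
Each panel shows 1 probe, with the quantile-normalized log2 signal on the vertical axis and the 4 groups on the horizontal axis; points are pools with their replicate number, open points were not above background (detection p of 0.01 or more), and bars are group means. Mbp spans 10.92 to 13.25, while both Mog probes have open points in 11 of 11 pools.

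Promoter sequences are shown for Mag, which varied between pools with Mbp, and for Cnp, whose correlation with Mbp was near 0. They are RefSeq sequences of build GRCm38.p6, from 250 bases before to 50 bases after the gene start, read 5′ to 3′ on the gene's strand. Capitals mark CANNTG, the E-box letters bound by basic helix-loop-helix factors, the family of Olig1. Mag lies at chr7:30914814-30915113 on the minus strand and Cnp at chr11:100574689-100574988 on the plus strand.
Mag promoter: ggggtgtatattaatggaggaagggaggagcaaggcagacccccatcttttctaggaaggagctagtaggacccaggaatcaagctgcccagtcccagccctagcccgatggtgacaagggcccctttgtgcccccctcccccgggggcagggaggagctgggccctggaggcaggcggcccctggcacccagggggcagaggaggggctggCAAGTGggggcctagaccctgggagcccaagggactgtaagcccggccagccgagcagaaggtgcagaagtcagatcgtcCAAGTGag
Cnp promoter: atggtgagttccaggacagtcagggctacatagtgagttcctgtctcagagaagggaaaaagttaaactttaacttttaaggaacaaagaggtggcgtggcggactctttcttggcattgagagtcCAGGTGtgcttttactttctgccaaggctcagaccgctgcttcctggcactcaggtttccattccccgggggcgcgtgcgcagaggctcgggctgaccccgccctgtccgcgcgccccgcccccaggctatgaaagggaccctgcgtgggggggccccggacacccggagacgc
The Mag window held 2 CANNTG matches and the Cnp window 1, and 72.3% of the 32851 promoters of that length held at least 1. CANNTG reads the same way on both strands. The windows of Mal, Cldn11, Mobp and Mog held 0. ACAAT, the core letters of the Sox motif, or its reverse complement ATTGT, whose matches can overlap those of CANNTG, was in 0 of these 6 windows and in 31.0% of all promoters. A match of letters is a description of the window only, and the windows of Mbp and Olig1 were not examined.

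At onset, none of the 9 member probes passed the test against PBS. The member counts were 0 at an adjusted p under 0.05 in limma, against 1.21% of all probes, and 0 at an unadjusted p under 0.05, against 9.72% of all probes. Mbp was higher by 0.84 on the log2 scale (95% CI -0.11 to 1.80, adjusted p = 0.599 in limma), Olig1 by 0.35 (CI -0.16 to 0.86, adjusted p = 0.726 in limma) and Mag by 0.34 (CI -0.13 to 0.80, adjusted p = 0.702 in limma). Without single pools the difference ran from 0.17 (without PBS pool 2) to 0.61 (without PBS pool 3) for Mag and from 0.14 (without onset pool 3) to 0.56 (without onset pool 2) for Olig1. Cnp had a log2 difference of -0.15 with a CI from -0.51 to 0.21. Onset pools lay above all PBS pools for 0 of 9 member probes, against 7.19% of all probes. With array weights, which give pools closer to their group mean more influence, 3 of 9 probes passed: Mbp at 1.42 (adjusted p = 0.0189 in limma), Mag at 0.63 (adjusted p = 0.0327 in limma) and Olig1 at 0.65 (adjusted p = 0.0453 in limma). PBS pool 1 carried a weight of 3.82 and onset pool 3 one of 2.98, against 0.427 to 1.37 in the other pools.

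At remission the members were again not called. The counts were 0 of 9 at an adjusted p under 0.05 in limma, against 0.204% of all probes, and 0 of 9 at an unadjusted p under 0.05, against 7.07%. The log2 difference from PBS was 0.90 for Mbp (CI -0.06 to 1.86, adjusted p = 0.741 in limma), 0.39 for Olig1 (adjusted p = 0.83 in limma) and 0.30 for Mag (adjusted p = 0.869 in limma). Remission pools lay above all PBS pools for 0 of 9 probes, against 5.67% of all probes. The width of the Mbp interval spans a fold of 0.962 to 3.62.

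At relapse the differences from PBS were larger, and again none passed after adjustment. Mbp was 1.51 higher on the log2 scale, a 2.85-fold difference with a 95% CI from 1.36 to 5.97 (unadjusted p = 0.00938, adjusted p = 0.777 in limma). Mag was 0.93 higher, or 1.90-fold with a CI from 1.33 to 2.73 (unadjusted p = 0.00205, adjusted p = 0.58 in limma). Olig1 was 0.83 higher, or 1.78-fold with a CI from 1.20 to 2.64 (unadjusted p = 0.00742, adjusted p = 0.747 in limma), and the brighter Mal probe 0.47 higher (unadjusted p = 0.0182, adjusted p = 0.833 in limma). These 4 of 9 probes passed an unadjusted p under 0.05, against 5.68% of all probes, and 0 of 9 passed the adjusted p, against 0.0125% of all probes, which is 3 probes. Relapse pools lay above all PBS pools for 6 of 9 member probes, against 10.7% of all probes. That count includes the second Mog probe, which was below background throughout. It also includes both probes of Mal, the dimmer of which differed by 0.11 (unadjusted p = 0.283 in limma). Mbp, Mag and Olig1 varied together from pool to pool, so the member probes are not independent in these counts. Cnp differed by 0.02 with a CI from -0.39 to 0.43, and Mobp by 0.25 with a CI from -0.27 to 0.77. In the exact permutation test of the pool values, two-sided, Mbp, Mag and Olig1 each gave p = 0.2 and the brighter Mal probe p = 0.1, and 0.1 is the smallest p that 2 pools against 3 allow.

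**Figure D2:**
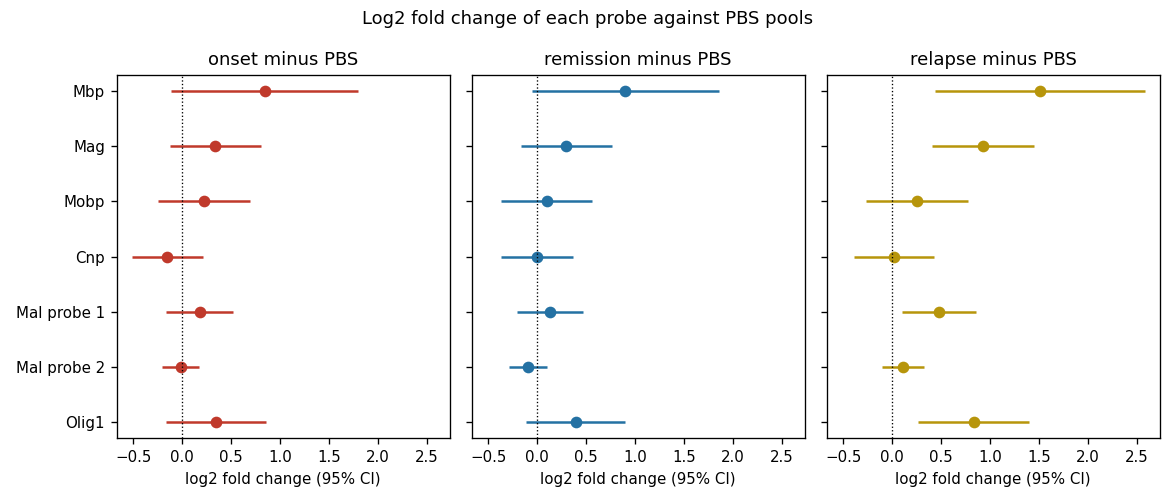
Log2 fold change from PBS (horizontal axis) with its 95% confidence interval from limma, for the 7 probes of 6 genes above background in some pool, at onset, remission and relapse; points are estimates and the dotted line is no difference. At relapse the intervals of Mbp, Mag, Olig1 and the brighter Mal probe lie above 0, and that of Cnp runs from -0.39 to 0.43.

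Between phases of disease, 0 of 9 member probes passed the adjusted p in limma in each of 3 comparisons. The share of all probes that passed was 0% for remission against onset, 0.292% for relapse against onset and 0.0292% for relapse against remission. At an unadjusted p under 0.05, members gave 0 of 9 for remission against onset, against 4.1% of all probes, 1 of 9 for relapse against onset, against 9.23%, and 2 of 9 for relapse against remission, against 5.51%. Mag was the probe in both of the last comparisons, 0.59 higher at relapse than at onset (adjusted p = 0.439 in limma) and 0.63 higher than at remission (adjusted p = 0.857 in limma), the other being the second Mog probe, which was below background. The Mbp group means rose from 11.59 in PBS pools (SD 0.945, n = 3) through 12.43 at onset (SD 0.754, n = 3) and 12.49 at remission (SD 0.549, n = 3) to 13.10 at relapse (SD 0.217, n = 2), and no neighbours in this order differed beyond their spread.

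Mbp, Mag and Olig1 varied together from pool to pool, also within groups. Deviations from group means were compared over 11 pools, with all 432 permutations of pools within groups and a family of 9 relations, all on 1 set of arrays with 1 normalization. Mag gave r = 0.892 (permutation p = 0.00694, adjusted 0.0417) and rho = 0.891 (permutation p = 0.00926, adjusted 0.0417). Olig1 gave r = 0.897 and rho = 0.864 (permutation p = 0.0139 and adjusted 0.0417 for each). Without PBS pools 1 and 2, the pools farthest from the median of Mbp, r was 0.776 for Mag and 0.884 for Olig1, and without onset pool 3 and remission pool 3 it was 0.844 and 0.922. Mobp gave r = 0.751 (permutation p = 0.0509, adjusted 0.0916) and rho = 0.700 (adjusted 0.133), and without PBS pools 1 and 2 r was 0.563. The brighter Mal probe gave r = 0.648 (permutation p = 0.0486, adjusted 0.0916) and rho = 0.700 (adjusted 0.0626), and without those pools r was 0.985. Cnp gave r = -0.127 with Mbp (permutation p = 0.847, adjusted 0.847) and rho = -0.0909 (adjusted 0.935), and r was 0.222 without PBS pools 1 and 2. For the brighter Mog probe, below background throughout, r was 0.446 (permutation p = 0.465, adjusted 0.598) and rho 0.227 (adjusted 0.797), and r turned to -0.476 without PBS pools 1 and 2.

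Among 9193 probes with 1 gene name above background in at least 3 pools, the gene most like Mbp over the 11 pools was Bcas1, with r = 0.982 given as a description. Bcas1 marks early myelinating oligodendrocytes. It measured 9.81, 9.58 and 10.59 in PBS pools 1, 2 and 3, 10.48, 9.92 and 10.56 in onset pools 1, 2 and 3, 10.38, 10.03 and 10.71 in remission pools 1, 2 and 3, and 10.78 and 10.85 in relapse pools 1 and 2. Olig1 (r = 0.935) and Mag (r = 0.908) came next. They were followed by Gja1, a gap junction protein of astrocytes and meningeal cells (r = 0.896), Ntsr2, a neurotensin receptor of astrocytes (r = 0.863), Ppp1r3c, a glycogen-targeting phosphatase subunit (r = 0.859), Cldn11, a claudin of myelin that epithelia including the CP also make (r = 0.857), and Mmd2 (r = 0.854). The genes most like Mobp were others, Tmem130 (r = 0.933), Fcho1 (r = 0.933), Tlnrd1 (r = 0.929) and Flvcr2 (r = 0.915). Copb2 (r = 0.900), Get4 (r = 0.889), Gtf2h1 (r = 0.885) and Nrd1 (r = 0.884) followed, and none of these genes is in a myelin list used here. The Get4 value is of a probe with a mean of 9.94, while a brighter Get4 probe measured 11.39 to 11.90.

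Other oligodendrocyte genes were taken from 5 lists of sheath proteins, transcription factors, lipid enzymes, other oligodendrocyte genes and progenitor genes. Of 57 genes listed, 49 were measured and 24 were above background in at least 1 pool. Markers of the lineage were split: Cldn11, Fa2h, which adds hydroxyl groups to myelin lipids, and Bcas1 were above background, while Olig2, Sox10, Nkx2-2, Opalin, Ermn, Aspa and Ugt8a were above background in 0 pools. Only Zfp536 among the 6 measured transcription factors was above background. Of 6 measured peripheral myelin genes, Pmp22 and Cmtm5 were above background, while Egr2, the regulator of Schwann cell myelination, was in 0 pools. After adjustment in limma, 0 of the 6 passed against PBS at onset, remission or relapse, against 1.21%, 0.204% and 0.0125% of all probes. At an unadjusted p under 0.05, 1 of the 6 was higher in each phase, against 9.72%, 7.07% and 5.68%, and 0 were lower. It was Pmp22 each time, higher by 0.30, 0.30 and 0.28 on the log2 scale.

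At onset 3 of the 49 genes rose and 0 fell after adjustment in limma, against 1.21% of all probes in either direction. At an unadjusted p under 0.05 the counts were 6 higher and 1 lower, against 9.72% of all probes. Pdgfra, the receptor of oligodendrocyte progenitors that stromal fibroblasts also make, rose by 1.00 on the log2 scale (adjusted p = 0.005 in limma), from 12.42 to 12.70 in PBS pools to 13.49 to 13.75 in onset pools. Ndrg1, made in oligodendrocytes, Schwann cells and epithelia, rose by 0.66 (adjusted p = 0.0129 in limma), and Trf, the iron carrier transferrin that CP epithelium also makes, by 0.61 (adjusted p = 0.0398 in limma). Pdgfra kept its call without any 1 pool. Ndrg1 lost it without PBS pool 1 (adjusted p = 0.0698), PBS pool 2 (0.0606), onset pool 1 (0.0571) or onset pool 3 (0.0595) in limma, and Trf lost it without any 1 PBS pool, onset pool or relapse pool and without remission pool 2, with adjusted p up to 0.153 in limma. Against PBS at remission and relapse, 0 of the 49 genes passed after adjustment in limma. At an unadjusted p under 0.05, 10 were higher at remission, against 7.07% of all probes in either direction, and 11 at relapse, against 5.68%, and 0 were lower in either phase. Cldn11 measured 12.30 to 12.88 in PBS pools and 13.15 to 13.21 in relapse pools, a log2 difference of 0.62 (adjusted p = 0.382 in limma). The median log2 difference of the 49 genes was 0.03 at onset, 0.07 at remission and 0.06 at relapse, beside -0.02, -0.01 and -0.01 over all probes.

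Whether the pools with high myelin signal also carried other brain RNA was asked pool by pool with marker lists. The astrocyte list had 12 measured genes, of which 7 were above background in at least 1 pool, with Aqp4, Slc1a3, Aldh1l1 and Gja1 above background in all pools and the defining markers Gfap and Slc1a2 in 0 pools. Its mean log2 signal was 10.003, 9.998 and 10.30 in PBS pools 1, 2 and 3, 10.34, 10.11 and 10.27 in onset pools 1, 2 and 3, 10.06, 9.99 and 10.31 in remission pools 1, 2 and 3, and 10.46 and 10.51 in relapse pools 1 and 2. It was highest in both relapse pools, and it was also high in PBS pool 3 and onset pool 1, pools with Mbp at 12.67. Remission pool 3 and onset pool 3 had more Mbp, at 13.06 and 13.04, but astrocyte means of 10.31 and 10.27, below that of onset pool 1. Within groups it followed Mbp with r = 0.923 (permutation p = 0.0116, adjusted 0.0417) and rho = 0.955 (permutation p = 0.00926, adjusted 0.0417), with r = 0.869 without PBS pools 1 and 2 and 0.992 with onset pool 3 and remission pool 3 left out.

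The neuron list had 25 measured genes, of which 19 were above background in at least 1 pool. Syp, a synaptic vesicle protein, and Gad1, an enzyme of GABA synthesis, were above background in all pools, while Snap25, Map2, Nefl, Nefm, Camk2a and Gad2 were in 0 pools. The list mean was 9.33, 9.26 and 9.54 in PBS pools 1, 2 and 3, 9.08, 9.47 and 9.69 in onset pools 1, 2 and 3, 9.21, 9.55 and 9.70 in remission pools 1, 2 and 3, and 9.996 and 9.67 in relapse pools 1 and 2. Onset pool 1 was the lowest of 11 for neuronal genes while its Mbp of 12.67 was the sixth lowest, and remission pool 1 was the next lowest for neuronal genes with Mbp at 12.45. In PBS pools 1 and 2, neuronal and myelin signals were both low, and in relapse pool 1 both were high. Within groups the neuron list gave r = 0.296 with Mbp (permutation p = 0.458, adjusted 0.598) and rho = 0.300 (adjusted 0.729), and r was 0.107 without PBS pools 1 and 2, 0.517 without onset pool 1, and -0.0949 when onset pool 3 and remission pool 3 were left out. The CP epithelium list gave r = -0.104 (permutation p = 0.831, adjusted 0.847) and rho = 0.00456 (adjusted 1), with r = 0.532 without PBS pools 1 and 2.

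**Figure D3:**
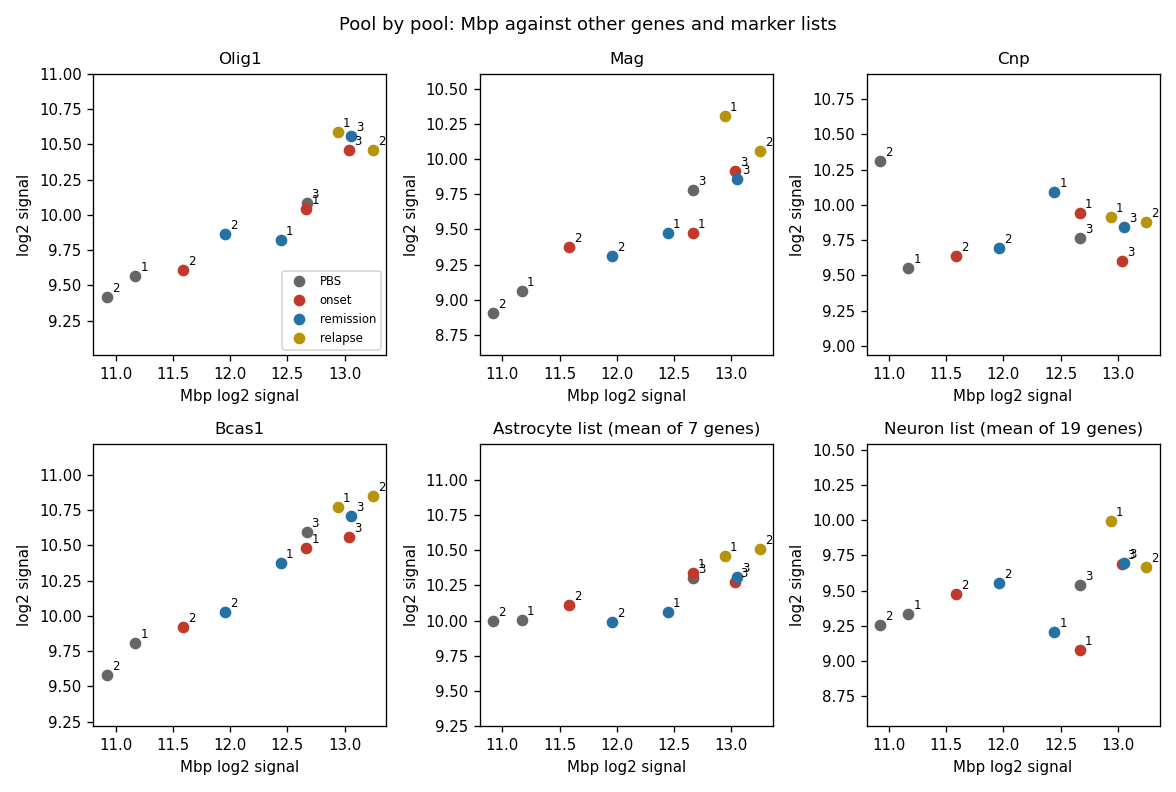
Mbp log2 signal (horizontal axis) against the log2 signal of Olig1, Mag, Cnp, Bcas1 and the mean log2 signal of the astrocyte and neuron lists (vertical axes, each spanning at least 2 log2 units); each point is 1 pool, coloured by group and marked with its replicate number. Olig1, Mag and Bcas1 rise with Mbp, Cnp is highest at the lowest Mbp, and onset pool 1 has the lowest neuron mean, 9.08, at an Mbp of 12.67.

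On the linear scale, summed normalized signals of the astrocyte list ran from 12070 to 15790 in PBS pools, 14510 to 17470 at onset, 12790 to 16070 at remission and 17380 to 18720 at relapse. Those of the neuron list ran from 19350 to 22120, 16750 to 23880, 19110 to 23810 and 24510 to 28630 in the same order. Eno2, the brightest neuron list gene (mean log2 signal 13.20, with Syp next at 10.56), weighs most in that sum. For both lists the relapse pools lay above all PBS pools, as for Mbp, Mag and Olig1. The cerebellum list, whose measured genes include Pvalb, Zic1 and Pcp2, ran from 16910 to 19430 in PBS pools and 20200 to 21510 in relapse pools. Its sum used the 4 of 9 measured genes above background in at least 1 pool. Pcp2 entered that sum through the relapse pools alone, so the higher relapse sum is not independent of this choice. The thalamus list (4 of 8 measured genes) ran from 8605 to 9636 in PBS pools and from 9799 to 9920 in relapse pools. In both lists the relapse pools were higher than the PBS pools. Remission pool 3 was at 20500 for the cerebellum list, within the relapse range, and at 9777 for the thalamus list. The summed striatum signal was lower, from 15610 to 20560 in PBS pools and from 15200 to 15340 in relapse pools. The mean log2 signal of the striatum list overlapped, at 10.23 to 10.51 in PBS pools and 10.29 to 10.33 in relapse pools. The hippocampus list overlapped, at 5976 to 6875 and 6504 to 7302, as did the ependymal list, at 51500 to 64070 and 56720 to 58510, and the pituitary list, at 3569 to 12180 and 9543 to 29750. Over all pools the pituitary sum ran from 1811 in onset pool 1 to 29750 in relapse pool 1. It was 22460 in onset pool 3 and 23480 in remission pool 3. The microglia list, led by Cx3cr1, ran from 3175 to 3940 in PBS pools and 3416 to 3605 in relapse pools, which overlapped. The CP epithelium list ran from 469900 to 483000 in PBS pools and 483000 to 485600 in relapse pools. In limma, 1 of 25 neuronal genes passed at onset, against 1.21% of all probes. It was Thy1, a surface protein of neurons, T cells and fibroblasts, which was 0.89 higher (adjusted p = 0.021 in limma), and its call was lost without PBS pool 1 (adjusted p = 0.107), PBS pool 2 (0.0974) or onset pool 3 (0.0999) in limma. At remission and relapse 0 of the 25 neuronal genes passed against PBS in limma, and 0 of the 12 astrocyte genes passed in any phase. At relapse, 9 of 25 neuronal genes and 5 of 12 astrocyte genes were higher than PBS at an unadjusted p under 0.05 and 0 were lower, against 5.68% of all probes in either direction. The part of attached brain tissue in the myelin signal was not tested.

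**Figure D4:**
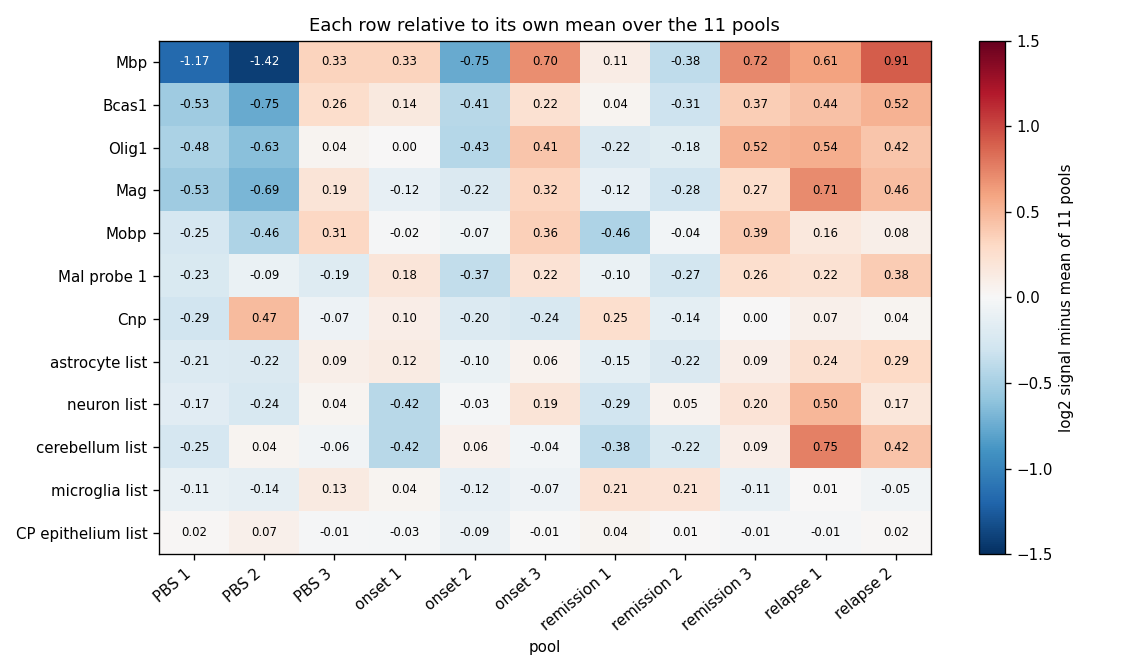
Each cell is the log2 signal of a gene, or the mean of a marker list, in 1 pool (columns) minus the mean of that row over the 11 pools, with red above and blue below that mean. Mbp runs from -1.42 in PBS pool 2 to 0.91 in relapse pool 2, the neuron list from -0.42 in onset pool 1 to 0.50 in relapse pool 1, and the CP epithelium list stays between -0.09 and 0.07.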

How the data were processed

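RNA of 11 CP pools was amplified, labelled with biotin and hybridised to Illumina MouseRef-8 arrays. The amplification kit in the labels is not the one in the paper. BeadStudio was used to read the arrays. The authors deposited signal intensity before normalization, linear in scale, and a detection p-value for each probe in each pool, and also deposited a table of quantile-normalized log2 values, used here as an alternative. The deposited normalized values differed from those computed here by at most 0.0888 in log2 signal in each pool. No value column was left unmapped.

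Here 23978 probes (23983 less 5 duplicates) were set on the log2 scale and quantile-normalized in R 4.3.3 with limma 3.58.1. Of these, 20917 had 1 gene symbol, 1 had several and 3060 had none. A limma model with a mean for each of 4 groups was fitted to all probes, two-sided, with Benjamini-Hochberg adjustment over all probes of a contrast. Confidence intervals come from that fit. Correlations used deviations from group means. The number of arrays limits the precision, and p-values measure only the spread between these pools. For genes with several probes, lists and correlations used the probe with the highest mean. The search for genes most like Mbp and Mobp ran over single probes instead. List means used genes above background in at least 1 pool. The fitting script was checked on simulated data of known answer.

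All member probes are named. From other lists, the genes named are those called or with the highest mean, with further markers named for being above background or not, and with Mbp and Mobp the 8 most similar genes each. The members and lists were chosen with earlier results of these data known. The alternatives were neqc background correction, the deposited normalized values, array weights, median scaling, removal of dim probes, fits restricted to 2 groups, a block for the replicate number, trend and robust eBayes, 1 probe per gene, unadjusted p, and leaving out each pool. Leaving out onset pool 3 and remission pool 3 together was chosen after seeing the data.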

Additional observations from a re-analysis of the deposited data

Results flagged for a closer look

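Among the members and marker lists, 2 marker genes differed between relapse and onset. They are among 70 probes called in that comparison, 23 higher and 47 lower at relapse, or 0.292% of all probes. Gad1 was 1.23 higher on the log2 scale at relapse than at onset (adjusted p = 0.0404 in limma), measuring 9.15, 9.55 and 10.07 in onset pools 1, 2 and 3 and 10.99 and 10.64 in relapse pools 1 and 2. Without relapse pool 1 the adjusted p was 0.39 and without relapse pool 2 it was 0.181 in limma. The call was also lost without PBS pool 1, onset pool 1, onset pool 2 or remission pool 2 (adjusted p from 0.0634 to 0.0846 in limma).

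Pcp2, a Purkinje cell gene of the cerebellum, passed the detection threshold in relapse pools 1 and 2 and in 0 of the 9 other pools. In relapse pool 2 Pcp2 was at 9.06, close to the lowest signal above background in that pool, 9.01. That lowest signal differed between pools, from 8.74 in onset pool 3 to 9.22 in PBS pool 2. Against the lowest signal above background in each onset pool, its mean at relapse was at least 1.515-fold higher. The measured signals differed by 1.14 on the log2 scale (adjusted p = 0.0476 in limma). It measured 8.18, 8.42 and 8.28 in onset pools 1, 2 and 3 and 9.82 and 9.06 in relapse pools 1 and 2. Without relapse pool 1 the measured difference was 0.76 (adjusted p = 0.421 in limma), and the call was also lost without PBS pool 1, any 1 onset pool or remission pool 2 (adjusted p from 0.0768 to 0.15 in limma) or without onset pool 3 and remission pool 3 together (0.0867). For each gene this is also the difference between the changes from PBS at relapse and at onset. No group had the 4 pools needed to test for outlying pools.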

How the results depend on the processing

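Of 324 values under alternatives other than leaving out 1 pool, 300 kept their direction and side of the threshold. Of 363 values with 1 pool left out, 344 did. With 1 pool left out, 0 of 9 member probes were called in limma in each of the 6 comparisons (lowest 0, highest 0).

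Array weights gave 3 member probes at onset. The replicate number as a block gave 2 at relapse against PBS, Mag at 1.12 (adjusted p = 0.0112 in limma) and Olig1 at 1.05 (adjusted p = 0.0122 in limma), and 1 at relapse against onset. The labels do not say whether same-numbered pools share more than a number. Over 15 pairs their deviations from group means correlated from -0.579 to 0.484, and 5 exceeded 0.1. Deviations within a group cancel out, so these values depend on one another and cannot decide it. Unadjusted p gave 4 at relapse against PBS, 1 at relapse against onset and 2 at relapse against remission.

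Reversed signs were all in small differences that passed no test, and those of the Mog probes, below background throughout, are differences of signal only. At onset, Mal probe 2 gave 0.0575 with median scaling and 0.0575 with array weights, Mog probe 2 -0.00275 and Cnp 0.0135 with array weights. At remission, Cnp gave 0.0118 with neqc, 0.0449 with median scaling, 0.188 with array weights and 0.0154 without both close pools, Mog probe 1 gave 0.0224 with array weights and 0.0263 without both close pools, and without both close pools Mobp gave -0.115 and Mal probe 1 -0.0149. At relapse, Cnp gave -0.0252 with the replicate block. Without single pools, Cnp ranged from -0.309 to 0.0678 at onset, -0.160 to 0.218 at remission and -0.141 to 0.238 at relapse, Mobp from -0.116 to 0.323 and Mal probe 1 from -0.0149 to 0.250 at remission, Mal probe 2 from -0.0777 to 0.0420 at onset, Mog probe 1 from -0.253 to 0.105 at onset and -0.187 to 0.171 at remission, and Mog probe 2 from -0.0549 to 0.0875 at onset and -0.130 to 0.0126 at remission. The causes were not tested.

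The Mbp difference ran from 0.51 (without PBS pool 2) to 1.38 (without PBS pool 3) at onset, from 0.57 to 1.44 without the same pools at remission and from 1.17 to 2.05 at relapse. Mag ran from 0.17 to 0.61 at onset, from 0.13 to 0.57 at remission and from 0.76 to 1.20 at relapse without the same pools. Olig1 ran from 0.14 (without onset pool 3) to 0.56 (without onset pool 2) at onset, from 0.15 (without remission pool 3) to 0.59 (without PBS pool 3) at remission and from 0.70 to 1.03 at relapse. Over all alternatives the lowest adjusted p at relapse was 0.0602 for Mbp, 0.0112 for Mag and 0.0122 for Olig1 in limma. A block for the beadchip was not run, because the chip of each array was not given in the sources used here. Signal over background limits Mobp and Mog most.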
